A study of Mus musculus with 14 samples.

Results

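Aminoacyl-tRNA synthetases are the enzymes that load each tRNA with its amino acid before protein synthesis. The genes described here were chosen by name. They are the protein-coding genes of the deposited count table whose symbol is a letter followed by ars, with or without a final 1 or 2, together with Eprs, Farsa, Farsb and Tarsl2. There were 38 such genes among the 54532 genes of the table. Of these, 17 carry a symbol ending in ars2 and are called mitochondrial below, and the other 21 are called cytosolic. All 38 passed the filter on low counts, which kept 15458 genes for testing.

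Each synthetase recognises its amino acid and the matching tRNAs, joins them at the cost of ATP, and in several cases removes wrongly attached amino acids. Cytosolic translation and translation inside mitochondria use separate enzymes for most amino acids, all encoded in the nucleus, while Gars and Kars each give rise to both a cytosolic and a mitochondrial form from a single gene. Muscle depends on both systems, since contractile proteins are made in the cytosol and the mitochondrial enzymes serve the few respiratory chain subunits encoded by mitochondrial DNA, and inherited defects in either kind are known to affect nerve, muscle or heart.

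The study asked how c-Myc in endothelial cells bears on obesity and its complications. Bulk RNA-seq was done on leg muscle (soleus and gastrocnemius, with no label saying which muscle gave which library) of male FVB/N mice. All mice carried the Tet-O-Myc transgene, a human c-Myc sequence under a tetracycline-controlled promoter that sits on the Y chromosome in this line, and all had been on doxycycline until it was withdrawn at 4 to 6 weeks of age. EC-Myc OE mice also carried Cdh5-tTA, a transactivator expressed in endothelial cells, and their CT littermates lacked it, so that only endothelial cells of EC-Myc OE mice were meant to express the transgene. The diet, either control (CTD) or a high-fat western diet (WD), was given for 20 weeks by the labels. CT-CTD was CT on control diet (n = 3), CT-WD was CT on WD (n = 3), OE-CTD was EC-Myc OE on control diet (n = 4) and OE-WD was EC-Myc OE on WD (n = 4). The study's own legend gives group sizes by diet rather than by genotype, and its results text gives a shorter time on diet; groups follow the labels of the libraries here. The labels do not say that each library came from a separate animal, so the p-values below measure the spread between these libraries.

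Total counts ranged from 21833839 to 28519159 per library, with medians of 24807368 in CT-CTD, 23814408 in CT-WD, 24226483 in OE-CTD and 26198262 in OE-WD. Synthetase genes were counted well at this depth, with mean counts per gene from 80 for Pars2 to 5307 for Eprs. No pair of libraries within a group differed as little as counting noise alone would give, since chi-square per degree of freedom was between 7.50 and 48.1. The biological coefficient of variation over all genes was 17.0%.

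Some libraries stood apart before any gene was tested. On the first principal component of all genes tested (28.0% of the variance), CT-CTD 2, CT-CTD 3, CT-WD 2 and CT-WD 3 lay between −47.0 and −33.1, whereas CT-CTD 1 lay at −0.15 and CT-WD 1 at 20.3, nearer to the EC-Myc OE libraries. OE-CTD 4 and OE-WD 4 lay at −47.6 and −28.9 on the second component (12.6% of the variance), and the lowest of the other 12 libraries lay at −8.69. The same pair had the lowest TMM factors, 0.888 and 0.899. The names of the libraries in the deposited table run along some of these lines. CT-CTD 1 and CT-WD 1 carry adjoining numbers far from those of the other CT libraries, OE-CTD 1, OE-CTD 2 and OE-CTD 3 share a number that OE-CTD 4 lacks, and all OE-WD libraries share another. What these numbers mark is not given in the sources used here, and none spans both genotypes or both EC-Myc OE diets, so there the numbers and the groups cannot be told apart. Results are also given without these libraries where they matter.

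The libraries were checked against marker genes. All 9 skeletal muscle markers were present, led by Myh4 at a mean of 48980 TMM-scaled CPM, which is also among the 9 fast fibre markers. Their summed CPM was 129878, 138062 and 127376 in CT-CTD, 123514, 145989 and 136336 in CT-WD and 116986, 112864, 117130 and 159747 in OE-CTD, while OE-WD had 125440, 122953, 114772 and 163938, highest in OE-CTD 4 and OE-WD 4. All 10 endothelial markers were present, led by Cdh5 at a mean of 92.9 CPM. The share of each library that came from endothelial cells was not measured. Summed endothelial CPM was 361, 364 and 381 in CT-CTD, 447, 382 and 384 in CT-WD and 473, 479, 448 and 426 in OE-CTD, while OE-WD had 481, 497, 506 and 492. Every OE-WD library lay above every CT-WD library and every OE-CTD library above every CT-CTD library, and 1 of the 10 markers had an adjusted p under 0.05 by edgeR's quasi-likelihood test with the Benjamini-Hochberg method on each diet, higher in EC-Myc OE, against 0.725% of all genes on WD and 2.67% on control diet in either direction. The median log2 fold change of the 10 was 0.38 on WD and 0.31 on control diet. These were Cdh5 on WD, with a log2 fold change of 0.46 (adjusted p = 0.0322 by the same test), and Tek on control diet, with 0.52 (adjusted p = 0.0232), both named after their values were seen. The 5 tendon markers, led by Fmod at a mean of 192 CPM, summed to 234, 100.2 and 162 in CT-CTD, 476, 83.9 and 107 in CT-WD and 401, 605, 498 and 306 in OE-CTD, while OE-WD had 408, 842, 556 and 300.2, and their median log2 fold change between the genotypes was 1.25 on WD and 1.67 on control diet. Among the CT libraries, CT-WD 1 and CT-CTD 1 were the highest in tendon markers. In bulk tissue, fewer cells of a type and less RNA per cell cannot be told apart, and the part of these markers in the synthetase results was not tested.

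Levels between genes are given as RPKM, the TMM-scaled CPM per kilobase of the gene length in the deposited table. Ranks and ratios between genes below rest on these lengths. Eprs, with a deposited length of 18102 bases, had counts from 4273 to 6304, against 2154 to 3217 for Nars, with 2632 bases. Among the cytosolic enzymes, Nars (asparagine) had the highest mean RPKM and Farsa, the alpha subunit of the phenylalanine enzyme, the lowest. Nars (ENSMUSG00000024587, chromosome 18, 64499665 to 64516557, minus strand) had an RPKM of 39.8, 37.5 and 40.6 in CT-CTD, 41.1, 42.0 and 45.6 in CT-WD and 39.9, 40.3, 38.8 and 41.8 in OE-CTD, while OE-WD had 44.5, 41.3, 38.4 and 40.1. Farsa (ENSMUSG00000003808, chromosome 8, 84856989 to 84869257, plus strand) had an RPKM of 6.34, 7.01 and 6.80 in CT-CTD, 6.72, 7.11 and 6.92 in CT-WD and 5.54, 6.69, 6.31 and 5.81 in OE-CTD, while OE-WD had 5.71, 5.82, 6.30 and 6.91. Every Nars value was above every Farsa value. Coordinates here and below are those of the deposited table on mm10.

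Between these limits, mean RPKM over the 14 libraries was 25.7 for Mars, 25.5 for Kars, 24.0 for Gars, 20.7 for Farsb, 19.4 for Sars and 16.3 for Iars. Farsb encodes the beta subunit that works with Farsa in the same enzyme, and its mean was more than that of Farsa at 6.43. The remaining 13 cytosolic genes had means from 7.03 for Cars to 13.9 for Wars. Tarsl2, which encodes another threonine enzyme, had a mean of 13.5 and the narrowest spread of any synthetase gene, between 13.0 and 14.3 over all libraries. It exceeded Tars, with a mean of 8.98, in every library.

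Among the mitochondrial enzymes, Lars2 (leucine) had the highest mean, 16.1, and Mars2 (methionine) the lowest, 0.812. The rank of Lars2 held for the mean and not for each library, since Iars2 was above it in CT-CTD 1 and OE-CTD 1. Mars2 (ENSMUSG00000046994, chromosome 1, 55237177 to 55248470, plus strand) had an RPKM of 0.798, 1.02 and 1.03 in CT-CTD, 0.819, 0.834 and 0.527 in CT-WD and 0.777, 0.789, 0.956 and 0.840 in OE-CTD, while OE-WD had 0.703, 0.683, 0.919 and 0.672. Its highest value was below the lowest value of each other mitochondrial gene except Nars2 and Pars2, which had means of 0.971 and 1.04 and overlapped it. The deposited length of Mars2, 11294 bases, is that of its whole span, and its counts were above those of Pars2 in every library. Its rank and the ratio to it below rest on that length. After Lars2, the means descended from 7.49 for Iars2 through 5.73 for Sars2, 5.59 for Yars2 and 5.57 for Aars2 to 1.75 for Cars2 and 1.38 for Wars2.

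By RPKM, the cytosolic class was the more abundant in every library. The median RPKM of the 21 cytosolic genes was between 12.4 and 13.9, and that of the 17 mitochondrial genes between 3.52 and 4.47. Their ratio was between 2.99 in CT-WD 2 and 3.83 in OE-WD 1, with a median of 3.32. It was 3.10 with Gars, Kars and Tarsl2 left out of the cytosolic class, and 4.07 with Lars2 left out of the mitochondrial class.

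The same order held within amino acids. Of 19 pairs of a cytosolic and a mitochondrial gene for the same amino acid, 18 had the cytosolic gene higher in all 14 libraries. The median ratio over libraries ran from 43.6 for Nars over Nars2 and 32.3 for Mars over Mars2 down to 1.60 for Yars over Yars2 and for Farsa over Fars2. Eprs, a single protein that charges both glutamate and proline tRNAs, was 11.8 times Pars2 and 6.51 times Ears2. The deposited length was 18102 bases for Eprs, 3094 for Pars2 and 5152 for Ears2. Lars over Lars2 was the exception, with the cytosolic gene higher in 8 of 14 libraries and a ratio from 0.288 to 1.85.

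**Figure D1:**
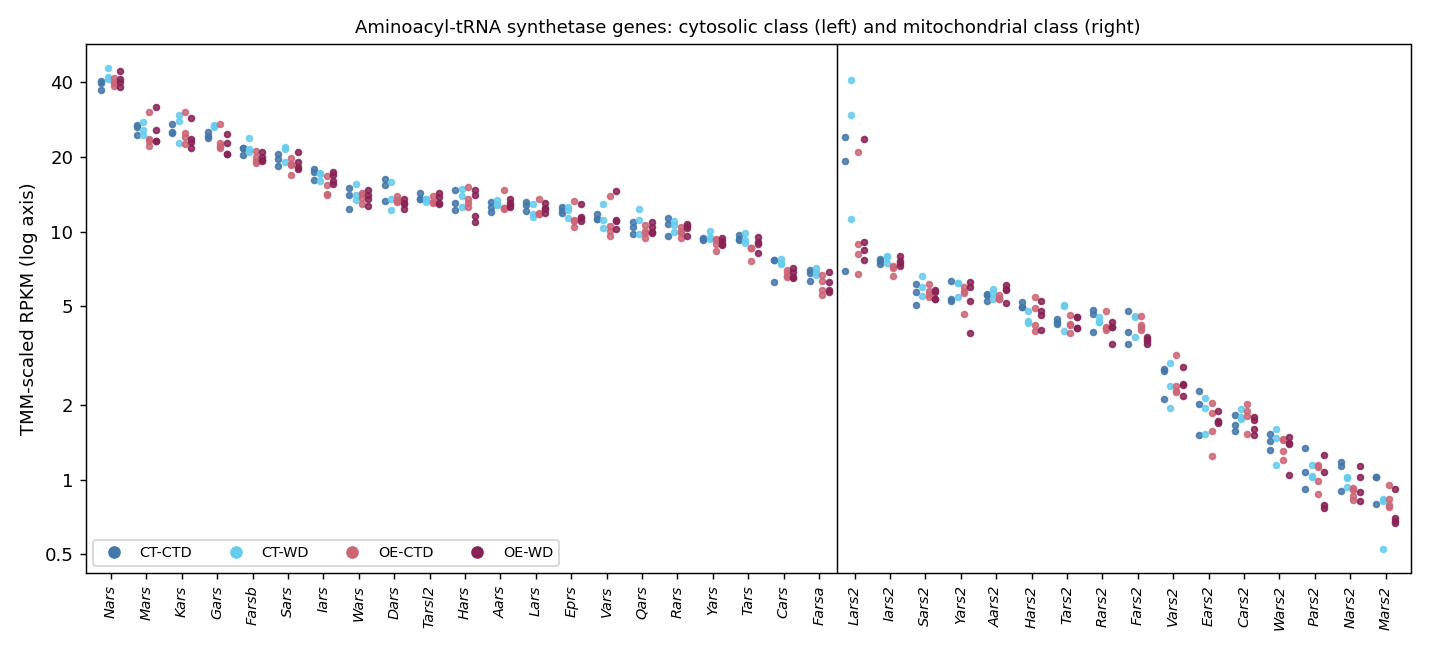
RPKM (log axis) of synthetase genes in each of the 14 libraries, with 1 point per library coloured by group, cytosolic genes apart from mitochondrial ones. Most genes hold a narrow band, from 13.0 to 14.3 for Tarsl2, whereas Lars2 runs from 6.73 to 40.9.

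Apart from Lars2, each synthetase gene varied less between libraries than the median of all genes tested. The coefficient of variation of RPKM over the 14 libraries had a median of 7.13% over the cytosolic genes, from 3.21% for Tarsl2 to 12.8% for Vars. Over the 16 mitochondrial genes other than Lars2 the median was 10.8%, from 4.93% for Iars2 to 17.2% for Mars2. For comparison, the median was 17.4% over all genes tested and 12.8% over the 9922 genes whose mean count lay in the range of the synthetase genes. Mars2, Pars2, Ears2, Vars2 and Vars were above the latter. Mitochondrial synthetase genes mostly had lower counts than cytosolic ones, and the part of counting noise in their wider spread was not tested.

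Part of the cytosolic spread lay in OE-CTD 4 and OE-WD 4. These were the highest of the 14 libraries for Eprs, Aars, Mars and Vars, which is 4 of 21 cytosolic genes, against 6.72% of all genes tested. Both were the lowest for Hars2 and Yars2, 2 of 17 mitochondrial genes, against 6.51% of all genes tested. Vars, the valine enzyme, had an RPKM of 13.97 and 14.6 in these libraries and between 9.66 and 13.0 in the others. Yars2, the mitochondrial tyrosine enzyme, had 4.67 and 3.89 in them and between 5.24 and 6.32 elsewhere. These genes were picked after their values were seen.

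Lars2 encodes the mitochondrial leucine enzyme, and its counts spread more widely than those of any other synthetase gene. Lars2 (ENSMUSG00000035202, chromosome 9, 123366927 to 123462666, plus strand) had an RPKM of 6.94, 19.2 and 24.1 in CT-CTD, 11.3, 29.5 and 40.9 in CT-WD and 6.73, 8.16, 8.93 and 20.9 in OE-CTD, while OE-WD had 7.67, 9.11, 8.43 and 23.7. In each group 1 or more libraries lay far from the rest, and the groups overlapped. CT-CTD 1 and CT-WD 1 were the lowest of their groups, while OE-CTD 4 and OE-WD 4 were the highest of theirs. The coefficient of variation was 65.2% and the highest value was 6.07 times the lowest.

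A like split of the libraries was seen in RNAs that are not translated into synthetases. CT010467.1 is annotated as rRNA (chromosome 17, 39846353 to 39848827) and held from 0.0294% to 0.186% of a library's counts although the RNA had been selected on poly-T beads. Gm26917 is a non-coding RNA gene beside it (39843013 to 39846341), and Malat1 is an abundant nuclear non-coding RNA. The 7 libraries highest in Lars2 were also the 7 highest in each of these genes. The highest library exceeded the lowest 6.81 times for CT010467.1, 4.05 times for Gm26917 and 2.50 times for Malat1. These genes were chosen after their values were seen, and the part of rRNA or nuclear RNA in the Lars2 counts was not tested. A search of annotated transcripts for close matches found none between the Lars2 transcripts and an rRNA. Short or diverged stretches could be missed by that search. In the annotation the Lars2 transcripts shared 72 bases at 98.6% identity with Gm15564 and 97 bases at 94.8% identity with AA474408, genes with mean counts of 3.86 and 24.4. The longest stretch over all its transcripts was 123 bases at 91.9% identity, with Nalcn.

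**Figure D2:**
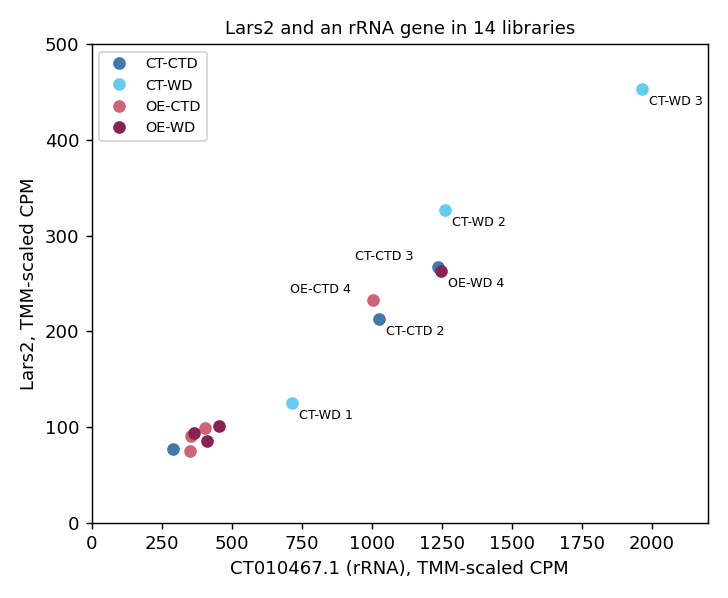
CPM of Lars2 against CPM of the rRNA gene CT010467.1 (both TMM-scaled, on linear axes), with 1 point per library coloured by group. The 7 libraries highest on one axis are the 7 highest on the other, and OE-CTD 4 and OE-WD 4 lie apart from the other EC-Myc OE libraries.

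Genotype was compared within each diet, which asks what endothelial c-Myc did to whole muscle on WD and on control diet. Each gene was tested with edgeR's quasi-likelihood test, with p-values adjusted by the Benjamini-Hochberg method over all 15458 genes, and was called altered at an adjusted p under 0.05 with a fold change over 1.5. Between OE-WD and CT-WD, 0 of 38 synthetase genes were altered, against 0.563% of all genes tested (87 genes), and 0 passed at an adjusted p under 0.05 at any fold change, against 0.725%. DESeq2 gave 0 adjusted (against 576 of 15458 genes) and 3 unadjusted (against 16.9% of all genes). For limma these were 0 (against 48 genes) and 2 (against 16.5%). At an unadjusted p under 0.05, edgeR gave 4 of 38, against 16.9% of all genes. The 4 were all lower in OE-WD, against 8.42% of all genes lower by this rule. The count of all genes altered hung on single libraries, from 4 without OE-WD 2 to 905 without CT-WD 1, and was 997 without CT-CTD 1 and CT-WD 1 together, where Lars2 was the only synthetase gene altered.

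Between OE-CTD and CT-CTD, edgeR found 0 of 38 synthetase genes altered, against 1.91% of all genes tested (295 genes, or 64 without CT-CTD 3 and 440 without CT-WD 1), and 0 at any fold change, against 2.67%. At an unadjusted p under 0.05 there were 2 of 38, against 15.9%, and both were lower in OE-CTD, against 6.7% of all genes. DESeq2 also gave 0 adjusted (against 814 genes) and 2 unadjusted (against 16.2%), and limma 0 (against 230 genes) and 2 (against 15.2%). The unadjusted count was 0 without CT-CTD 3 (against 11.6% of all genes), without OE-CTD 1 (14.2%) or without the filter on low counts (10.7%), and 5 of 38 without OE-CTD 4 and OE-WD 4 (against 19.4%). Synthetase genes at an unadjusted p under 0.05 were thus 10.5% on WD, against 16.9% of all genes, and 5.26% on control diet, against 15.9%. In the lower direction alone they were 10.5%, against 8.42%, and 5.26%, against 6.7%. These differences were not tested.

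The direction was nevertheless uneven. On WD, 30 of 38 log2 fold changes were below 0, against 49.1% of all genes, with 18 of 21 cytosolic and 12 of 17 mitochondrial genes among them. On control diet, 32 of 38 were below 0, against 50.1% of all genes, with 18 of 21 cytosolic and 14 of 17 mitochondrial genes. These comparisons share no library, but they may not be independent. Between the diets, equally numbered libraries correlated across genes at 0.123 to 0.385 in CT and at 0.0711 to 0.338 in EC-Myc OE. In both comparisons, 24 of 38 genes were below 0 and 0 were above 0, against 31.8% and 32.6% of all genes tested. Over all settings tried, between 24 and 32 were below 0 on WD and between 27 and 33 on control diet, the 24 coming without normalization factors, where the median of all genes was 0.05.

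The size of this shift was small in both classes. On WD, the median log2 fold change was −0.07 over the cytosolic genes and −0.09 over the mitochondrial genes, against 0.01 over all genes. On control diet, the medians were −0.06 and −0.08, against 0.00. The median over all 38 genes corresponded to 0.943 times the CT level on WD and 0.954 times on control diet. Without Lars2 the mitochondrial medians were −0.08 and −0.07. With OE-CTD 4 and OE-WD 4 left out, the cytosolic medians were −0.09 on WD and −0.11 on control diet, and the mitochondrial ones −0.07 and −0.08. Leaving out CT-WD 1 gave −0.09 and −0.11 on WD, and leaving out CT-CTD 1 gave −0.05 and −0.13 on control diet, the cytosolic class first. Leaving out OE-WD 1 gave −0.101 and −0.105 on WD. Some libraries left out brought medians nearer to 0. The cytosolic one on WD moved to −0.04 (without CT-WD 3) and the mitochondrial one on WD to −0.05 (without CT-WD 2). The mitochondrial one on control diet moved to −0.04 (without CT-CTD 3). Without normalization factors the WD medians were −0.03 and −0.05, where that of all genes was 0.05.

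Each 95% interval is for 1 gene alone, so the outermost bounds given here do not cover all genes at once. Leaving out Lars2, the 95% intervals of single synthetase genes reached from −0.57 to 0.39 on the log2 scale on WD, or 0.673 to 1.31 times the CT level. On control diet they reached from −0.57 to 0.34, or 0.672 to 1.27 times. For the cytosolic genes alone the outermost bounds were 0.729 and 1.25 times on WD and 0.784 and 1.20 times on control diet.

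**Figure D3:**
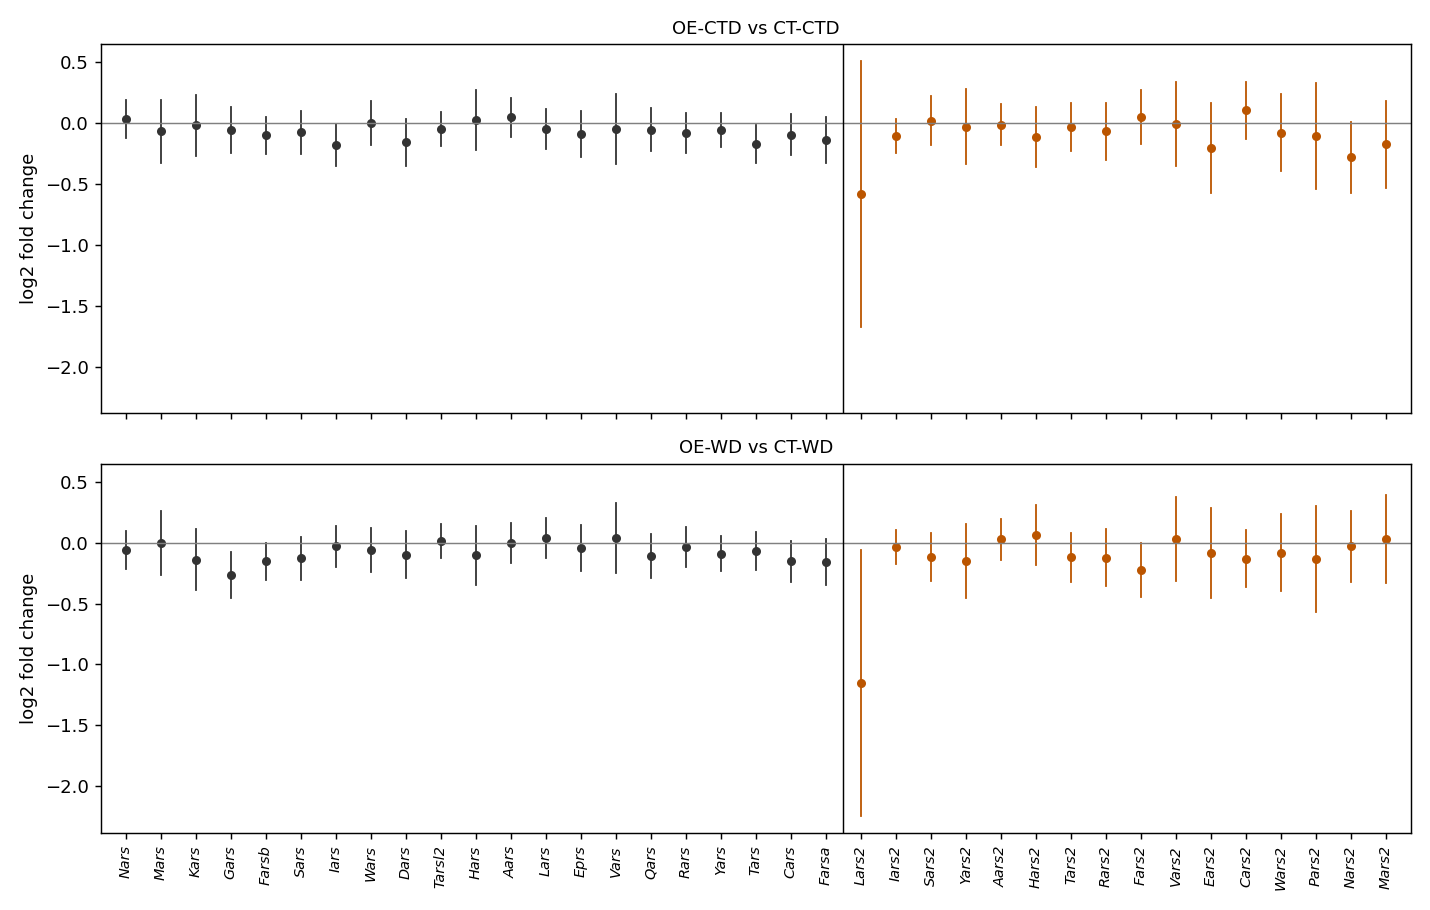
Log2 fold change of synthetase genes between EC-Myc OE and CT on WD and on control diet, with cytosolic and mitochondrial genes coloured separately. Points are fitted values, bars are 95% intervals, and most points lie just below 0 in both panels, with Lars2 the lowest at −1.15 on WD.

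The synthetase gene with the smallest p-value on WD was Gars, which encodes the glycine enzyme of both compartments. Gars (ENSMUSG00000029777, chromosome 6, 55038007 to 55079500, plus strand) had an RPKM of 25.1, 23.9 and 24.3 in CT-CTD, 26.8, 26.8 and 26.5 in CT-WD and 22.8, 21.9, 22.2 and 27.1 in OE-CTD, while OE-WD had 22.7, 20.6, 20.6 and 24.8. All 4 OE-WD libraries were below all 3 CT-WD libraries, while on control diet OE-CTD 4 was above the CT-CTD libraries and the groups overlapped. The means were 22.2 ± 2.03 (SD, n = 4) in OE-WD and 26.7 ± 0.186 (SD, n = 3) in CT-WD. The log2 fold change was −0.27 (SE 0.09, 95% interval −0.46 to −0.08), with an adjusted p = 0.147 by edgeR's quasi-likelihood test with the Benjamini-Hochberg method. On control diet the log2 fold change was −0.06 with an adjusted p = 0.819 by the same test.

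Lars2 had the largest fold change on WD, with means of 12.2 ± 7.67 (SD, n = 4) in OE-WD and 27.2 ± 14.9 (SD, n = 3) in CT-WD. The groups overlapped, because OE-WD 4 was above CT-WD 1. The log2 fold change was −1.15 (SE 0.51, 95% interval −2.24 to −0.06), with an adjusted p = 0.269 by edgeR's quasi-likelihood test with the Benjamini-Hochberg method. Lars2 was called altered by that test with an adjusted p = 0.0405 without the filter on low counts, and with an adjusted p = 0.0417 without CT-CTD 1 and CT-WD 1. Across settings its log2 fold change ran from −1.70, without OE-CTD 4 and OE-WD 4, to −0.74, without CT-WD 3, and its adjusted p from 0.0405 to 0.713. Beside it, CT010467.1 had a log2 fold change of −1.08 with an adjusted p = 0.310 in the same test, and Malat1 one of −0.46 with an adjusted p = 0.429.

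Fars2 encodes the mitochondrial phenylalanine enzyme. Fars2 (ENSMUSG00000021420, chromosome 13, 36117412 to 36726280, plus strand) had an RPKM of 3.54, 3.93 and 4.78 in CT-CTD, 3.76, 4.54 and 4.56 in CT-WD and 4.58, 4.12, 4.00 and 4.21 in OE-CTD, while OE-WD had 3.53, 3.69, 3.78 and 3.62. The OE-WD values were the narrowest of the 4 groups, below every OE-CTD value and below CT-WD 2 and CT-WD 3, with CT-WD 1 inside their range. Against CT-WD the log2 fold change was −0.23 (SE 0.10), with an adjusted p = 0.284 by edgeR's quasi-likelihood test with the Benjamini-Hochberg method. The remaining gene at an unadjusted p under 0.05 was Farsb, with a log2 fold change of −0.16 and an adjusted p = 0.288 by the same test. On WD 30 of 38 synthetase genes were below 0, with Farsb, its partner subunit Farsa and the mitochondrial Fars2 among them. Fars2 was at 0.05 on control diet.

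On control diet the smallest p-value was that of Tars, the cytosolic threonine enzyme. Tars (ENSMUSG00000022241, chromosome 15, 11382301 to 11399665, minus strand) had an RPKM of 9.69, 9.28 and 9.36 in CT-CTD, 9.89, 9.29 and 8.98 in CT-WD and 7.65, 8.61, 8.62 and 8.57 in OE-CTD, while OE-WD had 9.49, 9.08, 8.92 and 8.24. All OE-CTD libraries were below all CT-CTD libraries, and OE-CTD 1 was the lowest of all. Its log2 fold change was −0.18 (SE 0.07, 95% interval −0.33 to −0.02), with an adjusted p = 0.251 by edgeR's quasi-likelihood test with the Benjamini-Hochberg method. On WD it was −0.07 with an adjusted p = 0.669 by that test.

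Iars encodes the cytosolic isoleucine enzyme, a member of the multisynthetase complex. Iars (ENSMUSG00000037851, chromosome 13, 49682100 to 49734267, plus strand) had an RPKM of 17.9, 16.1 and 17.4 in CT-CTD, 17.2, 16.1 and 17.2 in CT-WD and 14.1, 14.3, 15.5 and 16.8 in OE-CTD, while OE-WD had 17.5, 15.5, 16.0 and 16.9. In OE-CTD only OE-CTD 4 reached into the range of CT-CTD. The log2 fold change on control diet was −0.18 (SE 0.08), with an adjusted p = 0.273 by edgeR's quasi-likelihood test with the Benjamini-Hochberg method. On WD it was −0.03, with an adjusted p = 0.883 by the same test.

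Nars2 is the mitochondrial asparagine enzyme and among the least abundant. Nars2 (ENSMUSG00000018995, chromosome 7, 96951505 to 97064758, plus strand) had an RPKM of 0.903, 1.14 and 1.18 in CT-CTD, 0.934, 1.03 and 1.01 in CT-WD and 0.864, 0.8287, 0.929 and 0.908 in OE-CTD, while OE-WD had 1.14, 1.02, 0.891 and 0.825. CT-CTD 2 and CT-CTD 3 were above every OE-CTD library, whereas CT-CTD 1 lay among them. The log2 fold change on control diet was −0.28 (SE 0.14), with an adjusted p = 0.335 by edgeR's quasi-likelihood test with the Benjamini-Hochberg method. By limma on log2(FPKM + 1), where the added 1 shrinks differences at levels near 1, it was −0.14.

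Genes whose groups did not overlap were counted in each direction, and the difference from all genes was not tested. On WD, Cars, Farsb and Gars were lower in every OE-WD library than in every CT-WD library (3 of 38, against 5.54% of all genes), and 0 were higher in every library (against 6.06%). On control diet, Iars2 and Tars were lower in every OE-CTD library than in every CT-CTD library (2 of 38, against 6.75%), and 0 were higher (against 8.73%).

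Diet was compared within each genotype, which asks how muscle of each genotype answers WD. Between CT-WD and CT-CTD, edgeR found 0 of 38 synthetase genes altered, against 0% of all genes tested (0 genes, both with and without the fold limit, but 41 altered without CT-WD 1 and 31 without CT-CTD 1 and CT-WD 1, again with 0 of 38), and 2 of 38 at an unadjusted p under 0.05, against 7.28%. DESeq2 gave 0 adjusted (against 35 genes) and 2 unadjusted (against 7.29%), and limma 0 (against 0 genes) and 1 (against 6.56%). Both genes were lower on WD, against 3.09% of all genes lower by this rule. With the replicate number as a block there were again 2 of 38, against 8.86% of all genes, of which 1 was lower. Log2 fold changes below 0 numbered 16 of 38, against 48.5% of all genes, with 7 of 21 cytosolic and 9 of 17 mitochondrial genes among them. The medians were 0.05 in the cytosolic and −0.02 in the mitochondrial class, against 0.01 over all genes. With 1 library left out, the mitochondrial median ran from −0.08 (without CT-CTD 1) to 0.04 (without CT-WD 1). The cytosolic one ran from 0.01 (without CT-CTD 2) to 0.05 (without CT-CTD 3).

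Among the genes at an unadjusted p under 0.05 between the CT groups was Mars2, whose groups overlapped, with a log2 fold change of −0.38 (SE 0.18) and an adjusted p = 0.682 by edgeR's quasi-likelihood test with the Benjamini-Hochberg method. The Mars2 value was −0.20 without CT-WD 3 and −0.59 without CT-CTD 1 and CT-WD 1. By limma on log2(FPKM + 1) it was −0.19, where the added 1 shrinks differences at levels near 1. With the replicate block Mars2 was no longer at an unadjusted p under 0.05 by edgeR. Nars did not reach that limit and was higher in every CT-WD library than in every CT-CTD library, with a log2 fold change of 0.13 (0.08 without CT-WD 3) and an adjusted p = 0.824 by edgeR's quasi-likelihood test. Without overlap, Gars and Nars were higher in CT-WD (2 of 38, against 4.47% of all genes), and 2 of 38 were lower, Hars2 among them (against 5.16%).

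Between OE-WD and OE-CTD, edgeR found 0 of 38 synthetase genes altered, against 0.00647% of all genes tested (1 gene, with and without the fold limit; it was Zbtb16, named after its values were seen), and 1 of 38 at an unadjusted p under 0.05, against 4.2%. DESeq2 and limma each gave 0 adjusted (against 1 gene each) and 0 unadjusted (against 4.17% and 4.41% of all genes). The synthetase gene at an unadjusted p under 0.05 by edgeR was Fars2, lower on WD, against 2.27% of all genes lower by this rule. Its log2 fold change was −0.21 (SE 0.10), with an adjusted p = 0.9999 by edgeR's quasi-likelihood test with the Benjamini-Hochberg method. Log2 fold changes below 0 numbered 15 of 38, against 48.6% of all genes, with 5 of 21 cytosolic and 10 of 17 mitochondrial genes among them. The medians were 0.02 in the cytosolic and −0.03 in the mitochondrial class, against 0.00 over all genes. Without OE-WD 4, 22 of 38 were below 0, 12 of them cytosolic, and the cytosolic median was −0.002.

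Iars2, the mitochondrial isoleucine enzyme, followed. Iars2 (ENSMUSG00000026618, chromosome 1, 185284726 to 185329396, minus strand) had an RPKM of 7.60, 7.79 and 7.45 in CT-CTD, 7.91, 7.97 and 7.51 in CT-WD and 7.22, 7.26, 7.15 and 6.65 in OE-CTD, while OE-WD had 7.46, 7.98, 7.65 and 7.31. All OE-WD libraries were above all OE-CTD libraries, and the OE-WD range was close to that of the CT groups. The log2 fold change was 0.10 (SE 0.06) and that of its cytosolic counterpart Iars was 0.12 (SE 0.07), with an adjusted p = 0.9999 for each by edgeR's quasi-likelihood test with the Benjamini-Hochberg method. Without overlap, Iars2 was the only gene higher in OE-WD (1 of 38, against 1.84% of all genes) and Fars2 the only gene lower (1 of 38, against 2.23%).

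The interaction asks whether the effect of WD differed between the genotypes. By edgeR, 0 of 38 synthetase genes passed, against 0% of all genes tested (0 genes, with and without the fold limit), and 0 of 38 had an unadjusted p under 0.05, against 5.92% of all genes and 3.34% in the lower direction. DESeq2 and limma also gave 0 and 0 (against 3 and 0 genes adjusted, and 5.99% and 5.65% of all genes unadjusted). By edgeR the unadjusted count was 1 of 38 with the replicate block (against 7.78% of all genes). It was also 1 without CT-CTD 3 (5.20%), CT-WD 1 (10.7%) or OE-WD 4 (5.82%), and without OE-CTD 4 and OE-WD 4 together (7.40%). Log2 differences below 0 numbered 21 of 38, against 50.9% of all genes. The medians were −0.03 in the cytosolic and 0.00 in the mitochondrial class, against −0.01 over all genes. The smallest p-values were those of Fars2, with a log2 difference of −0.28 (SE 0.15), and Gars, with −0.21 (SE 0.12). Their adjusted p = 0.857 and adjusted p = 0.865 came from edgeR's quasi-likelihood test with the Benjamini-Hochberg method. With 1 library left out, the difference ran from −0.41 (without CT-CTD 3) to −0.18 (without CT-CTD 1) for Fars2 and from −0.27 (without OE-WD 4) to −0.14 (without OE-CTD 4) for Gars.

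The balance between the classes differed little between the 4 groups. The summed cytosolic RPKM divided by the summed mitochondrial RPKM without Lars2 was 6.03 ± 0.341 (SD, n = 3) in CT-CTD, 6.18 ± 0.168 (SD, n = 3) in CT-WD, 6.01 ± 0.432 (SD, n = 4) in OE-CTD and 6.12 ± 0.436 (SD, n = 4) in OE-WD. The 4 means thus lay closer together than the libraries of CT-CTD did. The lowest value was 5.72 in OE-WD 2 and the highest 6.72 in OE-WD 4. The summed cytosolic RPKM was 332 ± 8.69 (SD, n = 3) in CT-CTD, 342 ± 11.1 (SD, n = 3) in CT-WD, 319.9 ± 19.5 (SD, n = 4) in OE-CTD and 323 ± 14.8 (SD, n = 4) in OE-WD. In each EC-Myc OE group the library numbered 4 was the highest.

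Of the cytosolic enzymes, 8 sit in the multisynthetase complex (Eprs, Iars, Lars, Mars, Qars, Rars, Kars and Dars), held together by the scaffold proteins Aimp1, Aimp2 and Eef1e1. The 8 enzymes had a median log2 fold change of −0.04 on WD between the genotypes, with 7 of 8 below 0, and of −0.07 on control diet, with 8 of 8 below 0. Between the diets the medians were −0.01 in CT and 0.04 in EC-Myc OE, and the median interaction was 0.05. Of these enzymes 0 passed at an adjusted p under 0.05 by edgeR in any comparison, and Iars on control diet was the only one at an unadjusted p under 0.05, against 15.9% of all genes.

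Between OE-WD and CT-WD the scaffold genes had a median log2 fold change of −0.31, all below 0. All 3 had an unadjusted p under 0.05, against 16.9% of all genes and 8.42% in the lower direction, and 0 an adjusted p under 0.05. For Aimp1 the RPKM was 12.4, 13.8 and 14.1 in CT-WD and 11.2, 11.2, 11.7 and 10.7 in OE-WD, without overlap. Its log2 fold change was −0.26 (SE 0.07), with an adjusted p = 0.0892 by edgeR's quasi-likelihood test with the Benjamini-Hochberg method. For Eef1e1 it was −0.31 (SE 0.11), with an adjusted p = 0.182 by that test, and for Aimp2 −0.33, with an adjusted p = 0.260. CT-WD 1 was the lowest CT-WD library for all 3 genes. Its Aimp2 RPKM of 72.5, against 108 and 115 in the other CT-WD libraries, was below all OE-WD libraries (74.0 to 84.7), and its Eef1e1 RPKM of 3.02 was below that of OE-WD 3, 3.12. Without CT-WD 1 the scaffold median was −0.37, and Aimp1 and Aimp2 had an adjusted p under 0.05 by the same test. In that setting 1499 of all 15828 genes tested passed. Without CT-WD 3 the median was −0.22, and 0 of the 3 passed, against 7 of all 15875 genes tested. DESeq2 with all libraries gave an adjusted p under 0.05 for Aimp1 alone, against 576 of all 15458 genes tested. On control diet the scaffold median was −0.14, and Aimp1 alone had an unadjusted p under 0.05 by edgeR, against 15.9% of all genes. Its log2 fold change there was −0.19 (SE 0.07), with an adjusted p = 0.174 by edgeR's quasi-likelihood test. Between the diets the scaffold medians were 0.11 in CT and −0.05 in EC-Myc OE. There 0 had an unadjusted p under 0.05 by edgeR, against 7.28% and 4.2% of all genes. The median interaction was −0.19, also with 0, against 5.92%.

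The 38 genes lie on 15 chromosomes. Hars and Hars2, the cytosolic and mitochondrial histidine enzymes, lie head to head on chromosome 18 and overlap by 198 bases, and Iars2 and Eprs start 33.65 kb apart on opposite strands of chromosome 1. Vars and Vars2 are 639 kb apart on chromosome 17. Of the 38 genes, 35 had the same position in GENCODE M21 as in the deposited table, and Hars, Lars and Nars did not.

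The strand of counting is not given in the sources used here. Whether reads from exons that a gene shares with a neighbour were counted, and for which gene, is thus not known. Exons of 15 of the 38 genes overlap exons of another gene, in 14 cases on the opposite strand, and for 9 genes the neighbour was above 1 CPM. The longest such overlap is 2034 bases between Iars2 and Rab3gap2, which had a mean of 26.7 CPM against 66.8 CPM for Iars2. Others are 422 bases between Cars2 and Naxd, 195 between Hars and Hars2, 115 between Fars2 and Lyrm4, 68 between Mars and the stress-response gene Ddit3, and 120 on the same strand between Tarsl2 and Tm2d3. A run of at least 100 bases at 95% identity or more with another gene was found in 1 or more annotated transcripts of 19 of 38 genes, for 12 of them with a gene above 1 CPM. Iars resembles the pseudogene Gm4849 over 1656 bases at 96.0% identity, and that pseudogene had a mean of 0.00864 CPM.

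Promoter sequences were looked up because most synthetase genes had fold changes on the same side of 0 between the genotypes, and 2 motifs were searched. They are the E box of c-Myc and the motif of Atf4, a factor that answers amino acid shortage. RefSeq sequences of 300 bases around the start on GRCm38.p6 matched 28 of the 38 genes, 14 in each class, by 29 windows. Among those without one were Cars, Hars, Hars2, Lars, Nars, Pars2, Rars, Vars and Wars. The E box CACGTG, which c-Myc with its partner Max can bind and which reads the same on both strands, was in the promoters of Aars, Ears2, Farsb, Iars and Tars, 5 of 28 genes, against 8.09% of all 27025 genes with a window. The Atf4 motif TGATGNAAN, read on both strands, was in those of Aars, Gars, Iars, Tars and Yars, 5 of 28 genes, against 4.50% of all genes with a window. The motifs share no position in these windows. The latter 5 genes are all cytosolic, while the E box was found in 4 cytosolic genes and 1 mitochondrial gene. A match describes letters in a window and no binding was measured here.

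The promoters of Gars, Iars and Tars are shown because these genes had the smallest p-values between the genotypes among cytosolic genes. Each is read 5′ to 3′ on the strand of the gene (plus for Gars and Iars, minus for Tars), with matches to either motif in capitals.
Gars chr6:55037751-55038050: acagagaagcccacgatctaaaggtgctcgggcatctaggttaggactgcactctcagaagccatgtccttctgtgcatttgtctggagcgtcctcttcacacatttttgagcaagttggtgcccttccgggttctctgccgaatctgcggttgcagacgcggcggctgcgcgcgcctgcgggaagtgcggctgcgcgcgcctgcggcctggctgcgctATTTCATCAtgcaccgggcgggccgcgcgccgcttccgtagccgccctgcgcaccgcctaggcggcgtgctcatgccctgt
Iars chr13:49681880-49682179: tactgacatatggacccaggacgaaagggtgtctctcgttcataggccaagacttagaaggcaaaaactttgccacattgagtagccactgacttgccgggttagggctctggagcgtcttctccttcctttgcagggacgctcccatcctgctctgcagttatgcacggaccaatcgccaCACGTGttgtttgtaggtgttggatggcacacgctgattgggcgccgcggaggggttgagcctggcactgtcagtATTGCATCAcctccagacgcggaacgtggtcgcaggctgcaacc
Tars chr15:11399609-11399908: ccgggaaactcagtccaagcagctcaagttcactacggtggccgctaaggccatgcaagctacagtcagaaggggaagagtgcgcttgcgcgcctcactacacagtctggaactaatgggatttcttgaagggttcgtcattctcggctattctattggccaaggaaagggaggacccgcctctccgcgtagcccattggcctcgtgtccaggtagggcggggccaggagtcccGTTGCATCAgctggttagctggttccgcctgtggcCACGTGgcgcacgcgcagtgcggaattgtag
The Gars window holds the Atf4 motif alone, whereas those of Iars and Tars hold both.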

How the data were processed

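The authors deposited counts, the reads assigned to each Ensembl gene in each of 14 skeletal muscle libraries, and FPKM per gene, in which the library total was between 79.9% and 98.0% of the summed counts. The submitters' processing notes name HISAT2 2.0.5, featureCounts 1.5.0-p3 and mm10. Genes were tested on the counts by edgeR 4.0.16 under R 4.3.3 (TMM factors, filterByExpr, a mean per group, quasi-likelihood test), with Benjamini-Hochberg adjustment over all genes tested in each comparison. Intervals are 95% intervals from the same fit. RPKM used the deposited gene lengths.

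Alternatives were DESeq2 1.42.0, RLE factors, no filter, the compared groups alone, limma 3.58.1 on log2(FPKM + 1), the replicate number as a block, and each library left out. No normalization factors, OE-CTD 4 and OE-WD 4 left out together, CT-CTD 1 and CT-WD 1 left out together, and the mitochondrial list without Lars2 were added after seeing the data. For CT-WD against CT-CTD, deviations of equally numbered libraries correlated across genes at 0.385, 0.123 and 0.203, so the numbers were taken as pairs in this comparison, from this check alone, which genes, not being independent replicates, cannot prove. In the other comparisons they were not. For the EC-Myc OE diets 7 of 8 libraries correlated best with their own number, against 5 of 6 for the CT diets. The choice was thus uneven. The main test used group means alone in every comparison, and the block is only among the alternatives. The tests were tried on simulated data, but the outcome is not given and no result here rests on it.

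Members, gene lists and motifs were chosen with earlier results of these data known. Named are, with the value in every library, members at an adjusted p under 0.05, the 3 with the smallest p in each comparison, and the most and least abundant of each class, and in each other list up to 2 genes with the smallest p in a comparison. A member that met this rule and a marker list are not reported here, and that member is not drawn in the figures but is in all counts and medians. Genes outside this rule are named where they complete a count or as examples of levels, and were chosen after their values were seen. Markers and lists for translation and the amino acid response came from general knowledge. Sequences were matched with BLAST, and annotation came from GENCODE M21.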

Additional observations from a re-analysis of the deposited data

Results flagged for a closer look

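In groups of 4 libraries, the highest or lowest library was compared with the rest of its group by Dixon's test. Of 30 groups tested, 6 held a library beyond the 95% critical value, where chance gives about 1 in 20 if groups are independent. They are not, since they are different quantities in the same OE-CTD and OE-WD libraries, so the count cannot be set against chance. OE-CTD 4 and OE-WD 4, already seen to stand apart, are among the libraries flagged. Lars2 RPKM was 20.9 in OE-CTD 4, against 6.73 to 8.93 in the other OE-CTD libraries, and 23.7 in OE-WD 4, against 7.67 to 9.11 in the other OE-WD libraries. In OE-CTD 4 the summed cytosolic RPKM was 349, against 308 to 313 in the rest of the group, and the ratio of summed cytosolic to summed mitochondrial RPKM without Lars2 was 6.66, against 5.74 to 5.83. Mars2 RPKM was 0.919 in OE-WD 3, against 0.672 to 0.703 in the other OE-WD libraries. Tars RPKM was 7.65 in OE-CTD 1, against 8.57 to 8.62 in the other OE-CTD libraries. The groups of 3 CT libraries were not tested in this way.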

How the results depend on the processing

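No result changed direction past its threshold under any alternative. Lars2 with the replicate block, at a log2 fold change of −1.498, without the filter on low counts, at −1.16, and without CT-CTD 1 and CT-WD 1 together, at −1.52, made 1 synthetase gene altered between OE-WD and CT-WD. In the other settings 0 were altered in any comparison. Median fold changes of each class moved by less than the spread between libraries except as follows.

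The median of the cytosolic genes between OE-CTD and CT-CTD was −0.11 with the replicate block, −0.11 without OE-CTD 4 and OE-WD 4 together, and between −0.11 (without OE-CTD 4) and −0.042 with 1 library left out. The median of the mitochondrial genes in the interaction was between −0.051 and 0.073 (without CT-CTD 1) with 1 library left out, and 0.071 without CT-CTD 1 and CT-WD 1 together. The ratio of cytosolic to mitochondrial levels was 4.07 without Lars2. The alternatives without normalization factors, without either pair of libraries and without Lars2 were chosen after seeing the data.

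Counts of all genes altered moved most. Without the filter they were 88 for diet in CT, 5 for diet in EC-Myc OE, 401 for genotype on WD, 570 for genotype on control diet and 29 for the interaction. DESeq2 gave 31 for diet in CT, 309 for genotype on WD, 509 for genotype on control diet and 3 for the interaction. For genotype on WD there were 4 with the compared groups alone, 30 by limma, 10 without normalization factors and 4 without OE-CTD 4 and OE-WD 4, which gave 0 for diet in EC-Myc OE. For genotype on control diet there were 117 by limma and 157 without normalization factors. With 1 library left out the counts ranged from 0 to 41 (without CT-WD 1) for diet in CT, from 0 to 2 for diet in EC-Myc OE, from 4 (without OE-WD 2) to 905 (without CT-WD 1) for genotype on WD, from 64 (without CT-CTD 3) to 440 (without CT-WD 1) for genotype on control diet, and from 0 to 1 for the interaction. Without CT-CTD 1 and CT-WD 1 together there were 31 for diet in CT, 997 for genotype on WD, 550 for genotype on control diet and 1 for the interaction. Synthetase genes at an unadjusted p under 0.05 for genotype on WD numbered 4 with all libraries, against 16.9% of all genes. Without CT-WD 1 they numbered 7 of 38 (all lower, against 26.0% of all genes). They numbered 1 without CT-WD 2 (against 11.4% of all genes), CT-WD 3 (10.03%), OE-WD 2 (12.5%) or OE-WD 3 (14.4%). The cause was not tested.

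For diet in EC-Myc OE, equally numbered libraries correlated across genes between 0.0711 and 0.338, and 7 of 8 libraries correlated best with their own number. For diet in CT, 5 of 6 did. For genotype on WD the correlations were between −0.230 and −0.0647, and 0 of 6 did. For genotype on control diet they were between −0.122 and 0.0465, and 1 of 6 did. In the genotype comparisons the libraries thus share only a number. The EC-Myc OE diets were not taken as paired. With the replicate block 1 of 38 synthetase genes was again at an unadjusted p under 0.05 there, against 5.74% of all genes. The replicate block moved the count of all genes altered from 87 to 77 for genotype on WD and from 295 to 388 on control diet. Apart from Lars2 it brought Gars on WD to an adjusted p = 0.0390 by edgeR's quasi-likelihood test with the Benjamini-Hochberg method, below the fold limit, and it changed no other call of a synthetase gene.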

Other observations

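Genes that act beside the synthetases were read from the same fit, and with all libraries 0 of them passed at an adjusted p under 0.05 by edgeR in any comparison. DESeq2 gave 1 such gene in each of the 2 lists that follow, Eef1b2 and Atf4, both between OE-WD and CT-WD. In that test 576 of all 15458 genes passed. Of 6 cytosolic elongation factor genes, which bring charged tRNAs to the ribosome and move it along, 3 had an unadjusted p under 0.05 between OE-WD and CT-WD, all lower, against 16.9% of all genes and 8.42% in the lower direction. Of the 6, 4 were below 0, and the median log2 fold change was −0.22, against 0.01 over all genes. Eef1b2 had −0.30 (adjusted p = 0.101), Eef1d −0.26 (adjusted p = 0.204) and Eef1g −0.23 (adjusted p = 0.269) by edgeR's quasi-likelihood test with the Benjamini-Hochberg method. CT-WD 1 lay nearer to OE-WD than the other CT-WD libraries did, with an Eef1b2 RPKM of 40.6 (48.6 and 49.5 in those, 41.0 in OE-WD 4) and an Eef1d RPKM of 17.3 (18.5 in OE-WD 4). Without CT-WD 1 the median was −0.29 and Eef1b2 and Eef1d had an adjusted p under 0.05 by the same test. It was −0.18 without CT-WD 2 and −0.19 without CT-WD 3. Each setting had 1 of the 6 genes at an unadjusted p under 0.05, against 11.4% and 10.03% of all genes. Between OE-CTD and CT-CTD the median was −0.02, and Eef1a1 alone had an unadjusted p under 0.05 (against 15.9% of all genes), with a log2 fold change of 0.33 (adjusted p = 0.170) by that test. The medians were 0.08 between the CT diets, −0.07 between the EC-Myc OE diets, with Eef1b2 alone at an unadjusted p under 0.05 (−0.21, against 4.2% of all genes), and −0.14 in the interaction, with Eef1b2 again alone (−0.30, against 5.92%).

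Of 15 genes of the amino acid response through Atf4, 14 were tested and Slc7a11 was not. Their median log2 fold change was 0.22 between CT-WD and CT-CTD, where 3 had an unadjusted p under 0.05, all higher, against 7.28% of all genes in either direction. There Atf4, which drives the response, had 0.33 (SE 0.11, adjusted p = 0.565) and Slc3a2, part of an amino acid transporter, 0.24 (SE 0.08, adjusted p = 0.565), while Aldh18a1 had 0.51 (adjusted p = 0.630) by edgeR's quasi-likelihood test with the Benjamini-Hochberg method. Between OE-WD and CT-WD the median was −0.10, and Atf4 alone had an unadjusted p under 0.05, with −0.35 (SE 0.11, adjusted p = 0.118) by that test, against 16.9% of all genes. These comparisons share the CT-WD libraries, and without CT-WD 1 the medians were 0.00 between the CT diets and 0.01 between OE-WD and CT-WD. There Atf4 alone of the 14 genes then had an adjusted p under 0.05 by the same test, against 1499 of all 15828 genes tested. Without CT-WD 2 the median between OE-WD and CT-WD was −0.18. The median was 0.15 between OE-CTD and CT-CTD (0.03 without CT-CTD 3 and 0.26 without CT-CTD 1), with Aldh18a1 alone at an unadjusted p under 0.05 (0.47, against 15.9%), and −0.02 between OE-WD and OE-CTD, with 0. In the interaction it was −0.15, with Atf4 alone (−0.36, against 5.92%).

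At an unadjusted p under 0.05 by edgeR were 16.9% of all genes for genotype on WD and 15.9% on control diet. For diet there were 7.28% in CT and 4.2% in EC-Myc OE, and 5.92% in the interaction. The remaining lists had 0 such genes in any comparison. On WD between the genotypes their median log2 fold changes were 0.05 for the 4 genes of mitochondrial glutaminyl and formyl-methionyl tRNA synthesis, −0.14 for the 4 genes that clear wrongly charged tRNAs, −0.03 for the 2 selenocysteine genes, −0.04 for the 7 mitochondrial translation factors and −0.01 for Trnt1 and Xpot, which finish and export tRNAs. On control diet they were 0.03, −0.11, −0.11, −0.02 and −0.07 in the same order.

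Other marker lists were summed in each library as CPM. The ranges of group means were from 5172 to 6241 for 9 slow fibre markers (led by Atp2a2), 118614 to 130802 for 9 fast fibre markers, 45.1 to 81.7 for 6 macrophage markers (led by Lyz2), 69.4 to 105 for 6 adipocyte markers (led by Cfd), 17.96 to 62.7 for 5 epidermal markers (led by Krt5) and 220.4 to 257 for 5 blood markers (led by Hba-a1). Krt5, Krt14, Krt1 and Hba-a2 were at 0 in some libraries. Of these lists, 0 genes passed at an adjusted p under 0.05 between the genotypes by edgeR on either diet. The median log2 fold changes, on WD and then on control diet, were −0.05 and 0.21 for slow fibre, −0.09 and 0.02 for fast fibre, 0.19 and 0.88 for macrophage, 0.65 and −0.19 for adipocyte, 0.86 and 0.62 for epidermal and −0.09 and −0.03 for blood markers. Summed macrophage CPM was 63.3, 38.7 and 33.4 in CT-CTD, 101, 49.0 and 42.2 in CT-WD and 69.3, 83.3, 109 and 65.0 in OE-CTD, while OE-WD had 60.0, 105, 62.3 and 65.1. The part of these markers in the synthetase results was not tested.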
